A study of Rattus norvegicus with 12 samples.

Results

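The EGF family of growth factors and the ErbB receptors were examined in the infarcted left ventricle of the rat, 1 day after coronary ligation. The 10 genes were taken as a named list, whatever their values, from the 34599 genes of the count table: the ligands Areg, Ereg, Hbegf, Tgfa, Btc and Nrg1, and the receptors Egfr, Erbb2, Erbb3 and Erbb4. RNA-seq counts were available for 12 male Sprague-Dawley rats, 4 per group. Sham rats had the chest opened and no ligation, MI rats had the left anterior descending coronary artery tied, and iCarP+/Light+ rats had the same ligation followed by Chlorella, a green alga that releases oxygen in light, injected into the infarcted wall. In these rats the alga was injected 10 min after ligation. The iCarP, a fibre-optic patch, was then stuck to the epicardium with an adhesive gel and lit the heart for 3 h at 55 mW. The MI rats received no alga, patch, gel or light, so iCarP+/Light+ minus MI measures all of these together, and they cannot be told apart. The rats were 6 weeks old where an age was stated, in the illumination experiments, and no separate age was given for the rats with ligation. A group with the patch but no light was not analysed here.

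ErbB receptors are tyrosine kinases that signal in pairs. EGF-like ligands are made as membrane-bound precursors and are released by metalloproteases, after which they bind a receptor and draw a second one to it. Areg and Tgfa bind Egfr, Hbegf, Ereg and Btc bind Egfr and Erbb4, and Nrg1 binds Erbb3 and Erbb4. Erbb2 has no known ligand of its own and serves as the favoured partner, and Erbb3 has a weak kinase and signals through its partner. In the heart, Nrg1 from endothelial cells acts on Erbb4 and Erbb2 of cardiomyocytes, a pathway needed for formation of the ventricular wall.

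On the rn6 assembly, Btc (ENSRNOG00000002728, 14:18231860-18272484, plus strand), Areg (ENSRNOG00000002754, 14:18521930-18531179, minus strand) and Ereg (ENSRNOG00000002771, 14:18576355-18591394, minus strand) were neighbours within 359535 bases, with no other annotated gene of the table wholly inside that span. Egfr (ENSRNOG00000004332, 14:99919485-100098796, plus strand) was on the same chromosome. The other members were on separate chromosomes, Hbegf at 18:29329764-29340403, Tgfa at 4:117962319-118046344, Nrg1 at 16:63837216-64057434, Erbb2 at 10:86367596-86391728, Erbb3 at 7:2989340-3010350 and Erbb4 at 9:75021790-75528644. RefSeq promoters on the GRCr8 assembly were matched for 7 of the 10 genes and not for Ereg, Nrg1 and Erbb3. The 250 bases before the start are shown for the matched members of the chromosome 14 cluster and for Erbb4, the receptor that fell after ligation, with motif matches in capitals.
Areg, chr14:17265642-17265891, minus strand: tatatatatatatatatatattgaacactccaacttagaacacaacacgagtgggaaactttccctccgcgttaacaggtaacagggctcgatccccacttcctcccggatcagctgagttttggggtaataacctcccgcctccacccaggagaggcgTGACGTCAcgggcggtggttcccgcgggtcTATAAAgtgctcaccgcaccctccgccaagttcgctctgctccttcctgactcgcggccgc
Btc, chr14:16992418-16992667, plus strand: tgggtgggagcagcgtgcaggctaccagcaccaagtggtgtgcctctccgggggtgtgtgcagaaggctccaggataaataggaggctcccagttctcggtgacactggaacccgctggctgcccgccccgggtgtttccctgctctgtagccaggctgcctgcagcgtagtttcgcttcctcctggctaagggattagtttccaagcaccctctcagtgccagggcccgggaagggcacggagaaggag
Erbb4, chr9:78045607-78045856, minus strand: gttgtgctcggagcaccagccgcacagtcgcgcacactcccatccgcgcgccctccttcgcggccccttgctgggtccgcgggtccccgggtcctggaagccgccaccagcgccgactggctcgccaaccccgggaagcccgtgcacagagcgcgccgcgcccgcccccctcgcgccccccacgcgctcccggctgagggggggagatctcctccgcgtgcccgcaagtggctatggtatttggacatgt
Both strands were searched for the AP-1 site TGANTCA, the cAMP response element TGACGTCA, its short core TGACG and the TATA box TATAAA, motifs chosen with results of these data known. The Areg window held the full element from 91 to 84 bases before the start, which contains the core on both strands, and a TATA box from 61 to 56 bases before it. Of 33469 promoters of this length, 1.59% held the full element, 18.2% the core, 12.9% the TATA box and 6.34% the AP-1 site. The Hbegf window held a core from 193 to 189 bases before the start, and the other 5 matched members held none of the 4 motifs.

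Total counts per rat ranged from 16806502 to 17136958 in Sham, from 14898054 to 16923619 in MI and from 14064414 to 16775369 in iCarP+/Light+. Mitochondrial genes took 22.8 to 28.9% of counts in Sham, 8.52 to 11.5% in MI rats and 7.14 to 14.2% in iCarP+/Light+. The 9 measured cardiomyocyte markers summed between 52750 and 57687 CPM (counts scaled to a fixed library size, after TMM scaling) in Sham, as the heart label requires, between 3333 and 6584 in MI rats and between 2831 and 7742 in iCarP+/Light+. The summed CPM of other cell type lists also moved. Fibroblast markers lay at 6076 to 7410 in Sham, 1786 to 2197 in MI rats and 1188 to 2076 in iCarP+/Light+, smooth muscle markers at 3180 to 3627, 2983 to 3532 and 2078 to 3074, epicardial markers at 45.8 to 64.9, 16.9 to 29.9 and 22.5 to 30.1, and red blood cell markers at 8011 to 10772, 2553 to 7077 and 6286 to 17707. Monocyte and macrophage markers lay at 435 to 681, 3990 to 6923 and 3077 to 5060. In such bulk tissue, fewer cells of a type and less RNA per cell cannot be told apart. No batch was given in the labels.

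One day after ligation, Hbegf and Erbb3 were the abundant members that rose. In MI minus Sham all 6 ligands rose, Erbb3 rose, Erbb4 fell, and Egfr and Erbb2 did not pass the test (adjusted p of edgeR's quasi-likelihood test below 0.05 over all 15101 genes tested). Of all genes tested, 30.2% rose and 33.6% fell in this comparison, so 8 of 10 genes called must be read against a transcriptome in which most genes were called. The rats of both groups did not overlap for 5 ligands and 2 receptors, against 59% of all genes. All 10 genes passed the filter on low counts, but Areg, Ereg and Nrg1 reached 10 counts in no Sham rat and passed it through the infarcted groups alone, as did Tgfa, with 10 counts in 1 Sham rat, and Btc, with 10 counts in 3. Erbb4 reached 10 counts in 4 Sham, 2 MI and 0 iCarP+/Light+ rats and passed through Sham alone. For these 6 genes the filter itself favoured a difference from Sham, here and in iCarP+/Light+ minus Sham, so the counts over the 10 genes are a description and support no statement on the group.

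**Figure D1:**
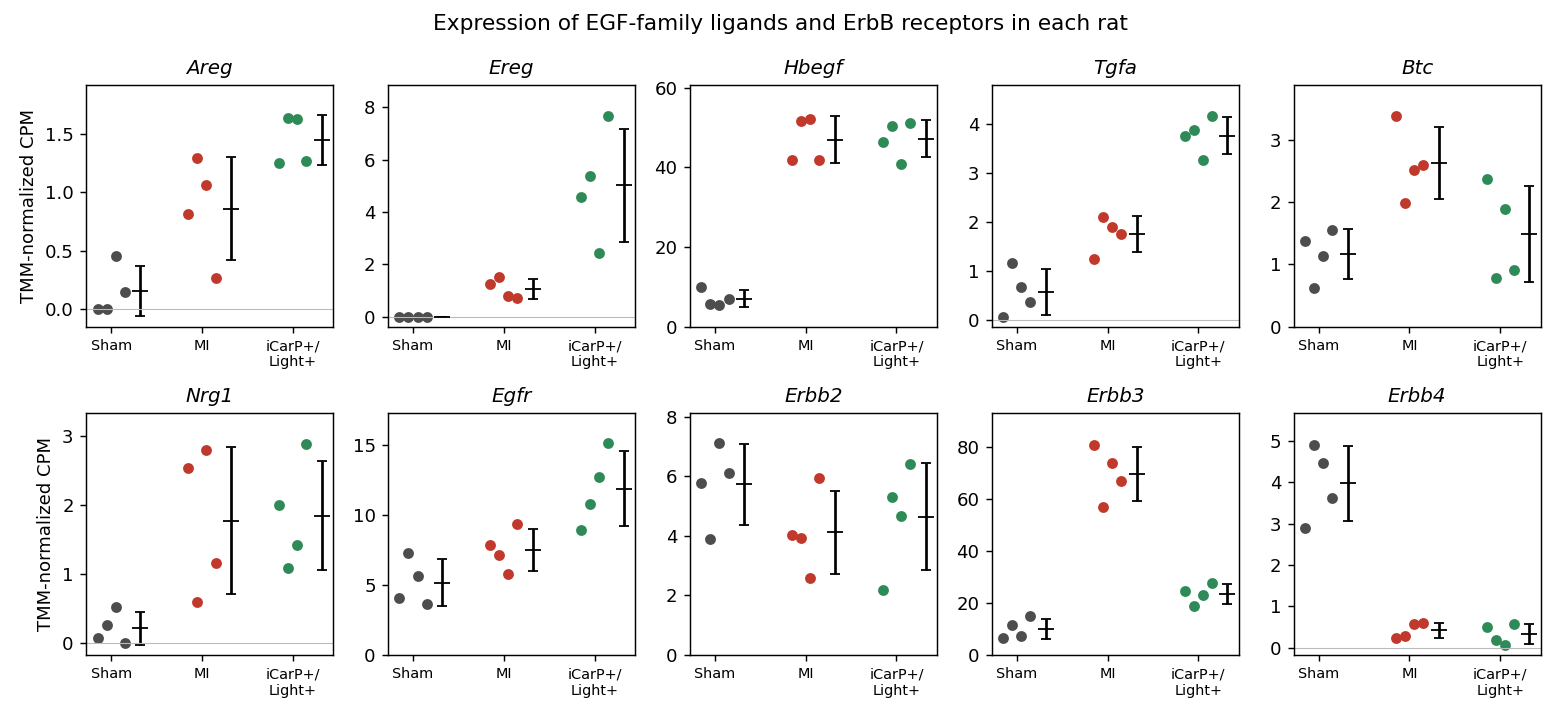
CPM of the 6 ligands and 4 receptors in each rat. The y axis of each panel is TMM-normalized CPM on a linear scale that includes 0, the x axis gives the group, circles are single rats (n = 4 per group) and the bar and whiskers are mean ± SD. Ereg was at 0 in every Sham rat and highest in iCarP+/Light+, while Erbb3 was highest in MI (69.5 CPM) and intermediate in iCarP+/Light+ (23.5 CPM).

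Hbegf, the heparin-binding ligand, was the most abundant member per length in every group. It measured 10.05, 5.60, 5.39 and 6.93 CPM in Sham rats 1, 2, 3 and 5, and 41.9, 51.7, 52.2 and 41.9 CPM in MI rats 1, 3, 4 and 5. The iCarP+/Light+ rats 1, 2, 4 and 5 had 46.4, 50.3, 40.8 and 51.1 CPM. Every infarcted heart stood above every Sham heart, and the infarcted groups overlapped fully. Hbegf rose 6.71-fold in MI minus Sham (log2 2.75, SE 0.19, adjusted p = 1.32e-07) and by the same log2 2.75 in iCarP+/Light+ minus Sham (adjusted p = 7.91e-08). Between the infarcted groups its log2 difference was 0.01 (SE 0.17, adjusted p = 0.988), with a 95% interval from -0.36 to 0.37.

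Ereg, epiregulin, was absent from the Sham counts and highest in the patch-treated hearts. It had 0 counts in all 4 Sham rats, 1.24, 1.51, 0.783 and 0.692 CPM (26, 28, 14 and 13 counts) in MI, and 4.57, 5.38, 2.44 and 7.67 CPM (73, 89, 36 and 109 counts) in iCarP+/Light+. No rats of different groups overlapped. Against a floor of 3 counts over the Sham group (0.0543 CPM), Ereg was at least 19.5-fold higher in MI (adjusted p = 7.43e-05) and at least 92.3-fold higher in iCarP+/Light+ (adjusted p = 3.78e-06). It rose 4.70-fold in iCarP+/Light+ minus MI (log2 2.23, SE 0.41, adjusted p = 0.00511), the only member that rose there. Of all genes tested, 11.6% rose and 2.01% fell in this comparison. Neutrophil markers moved in the same order as Ereg, with a summed 20.5 to 33.7 CPM in Sham hearts, 438 to 739 in MI hearts and 3549 to 9969 in iCarP+/Light+ hearts, with 8 of 9 tested markers higher in MI than in Sham and all 9 higher in iCarP+/Light+ than in MI (median log2 3.91). Of these, Camp and Il1r2 reached 10 counts in 0 Sham rats, Mmp9 in 1, and S100a8, Cxcr2 and Mmp8 in 3. For these markers the filter favoured a difference from Sham. Camp reached 10 counts in 3 MI and 4 iCarP+/Light+ rats, so for Camp the filter also favoured iCarP+/Light+ over MI. Ngp of the same list had too few counts to be tested (0.418, 0.224 and 0.291 CPM). The part of the neutrophil markers in the level of Ereg was not tested.

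Tgfa, a ligand of Egfr, followed the order Sham, MI, iCarP+/Light+. Sham rats had 0.0723, 1.16, 0.683 and 0.369 CPM (1, 17, 9 and 5 counts), MI rats had 1.24, 2.10, 1.90 and 1.76 CPM and iCarP+/Light+ rats had 3.76, 3.87, 3.25 and 4.15 CPM. The groups did not overlap, although the highest Sham rat was just under the lowest MI rat. Tgfa rose 3.02-fold in MI minus Sham (log2 1.59, SE 0.48, adjusted p = 0.0105) and 6.46-fold in iCarP+/Light+ minus Sham (log2 2.69, adjusted p = 2.51e-04), and without Sham rat 2 the log2 values were 2.21 and 3.31. Its log2 difference of 1.10 in iCarP+/Light+ minus MI (SE 0.43, 95% interval 0.18 to 2.02) did not pass over all genes (adjusted p = 0.117), and 16.4% of all genes had no overlap in this comparison. The difference passed with DESeq2 (1.05, adjusted p = 0.0320), with limma-voom (1.12, adjusted p = 0.0378), in a fit of the 8 infarcted rats alone (1.06, adjusted p = 0.0209) and without Sham rat 1 (1.10, adjusted p = 0.0337).

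Areg, amphiregulin, was at the limit of detection in Sham, with 0, 0, 0.455 and 0.147 CPM (0, 0, 6 and 2 counts). It had 0.814, 1.29, 1.06 and 0.266 CPM in MI and 1.25, 1.63, 1.63 and 1.27 CPM in iCarP+/Light+. MI rat 5 lay below Sham rat 3, and these were the only infarcted and Sham rats that overlapped. Areg rose by log2 2.49 (SE 0.77, adjusted p = 0.0121) in MI minus Sham. This call rests on the iCarP+/Light+ rats having carried Areg past the filter, since 3 MI rats reached 10 counts and a fit of the 8 MI and Sham rats alone did not test it. Without Sham rat 3 the difference was 3.97 in MI minus Sham and 4.71 in iCarP+/Light+ minus Sham. It rose by log2 3.23 (SE 0.76, adjusted p = 0.00201) in iCarP+/Light+ minus Sham. The difference between the infarcted groups was 0.75 (SE 0.60, adjusted p = 0.487), with a wide 95% interval of -0.54 to 2.03.

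Btc, betacellulin, rose in MI minus Sham and was not called in iCarP+/Light+ minus Sham. Sham rats had 1.37, 0.614, 1.14 and 1.55 CPM, MI rats had 3.40, 2.00, 2.52 and 2.61 CPM, and iCarP+/Light+ rats had 2.38, 0.786, 1.90 and 0.914 CPM, which overlapped both other groups. Btc rose 2.25-fold in MI minus Sham (log2 1.17, SE 0.40, adjusted p = 0.0199), a difference that the filter favoured, since Sham rat 2 had 9 counts. This call was lost without MI rat 1 (1.03, adjusted p = 0.0571) or Sham rat 2 (0.96, adjusted p = 0.0579). The log2 difference was 0.36 in iCarP+/Light+ minus Sham (SE 0.40, adjusted p = 0.456, 95% interval -0.52 to 1.23), and in iCarP+/Light+ minus MI it was -0.81 (SE 0.39, adjusted p = 0.209, 95% interval -1.65 to 0.02).

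Nrg1, neuregulin 1, had 0.0723, 0.273, 0.531 and 0 CPM (1, 4, 7 and 0 counts) in Sham, 2.54, 0.593, 2.80 and 1.17 CPM in MI rats and 2.00, 1.09, 1.42 and 2.88 CPM in iCarP+/Light+. Every infarcted heart was above every Sham heart, and the MI rats spread widest. It rose 7.90-fold in MI minus Sham (log2 2.98, SE 0.73, adjusted p = 0.00294) and by log2 3.04 in iCarP+/Light+ minus Sham (SE 0.73, adjusted p = 0.00252), and without Sham rat 3 by 3.83 and 3.88. Between the infarcted groups it differed by 0.05 (SE 0.59, adjusted p = 0.969, 95% interval -1.21 to 1.32), an interval too wide to call them alike. Endothelial markers summed to 1647 to 1852 CPM in Sham, 802 to 1132 in MI rats and 960 to 1108 in iCarP+/Light+. Of the 8 tested, 6 were lower in MI than in Sham and 2 did not pass. The part of endothelial cells in the level of Nrg1 was not tested.

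**Figure D2:**
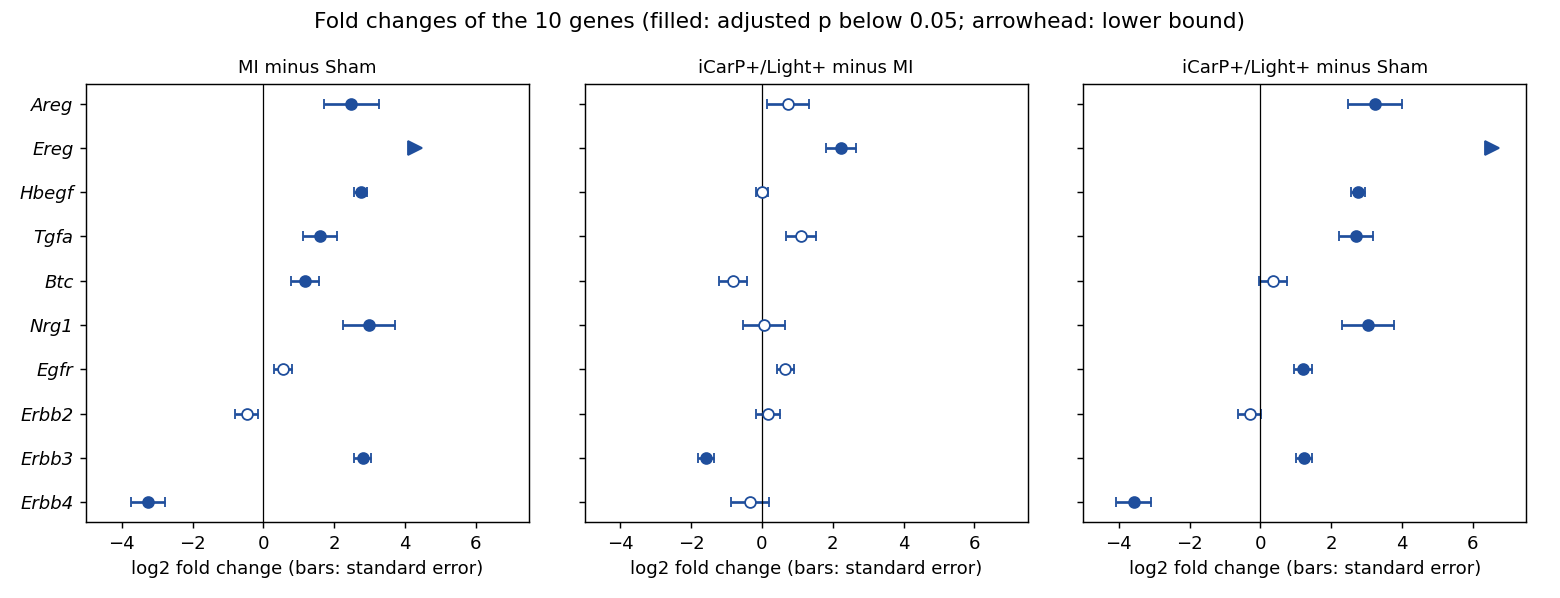
Log2 fold change of each gene in MI minus Sham, iCarP+/Light+ minus MI and iCarP+/Light+ minus Sham, from the edgeR fit over 12 rats. Points are estimates with SE bars, filled where the adjusted p was below 0.05, and arrowheads mark Ereg against Sham as a lower bound (log2 4.28 in MI and 6.53 in iCarP+/Light+). Between the infarcted groups only Ereg (2.23) and Erbb3 (-1.57) are filled.

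Among the receptors, Erbb3 rose in MI minus Sham and fell in iCarP+/Light+ minus MI. It had 6.43, 11.3, 7.29 and 14.7 CPM in Sham, 80.7, 56.6, 73.7 and 66.9 CPM in MI, and 24.6, 18.6, 23.0 and 27.6 CPM in iCarP+/Light+. The 3 groups did not overlap. Erbb3 rose 6.98-fold in MI minus Sham (log2 2.80, SE 0.24, adjusted p = 6.41e-07), fell 2.96-fold in iCarP+/Light+ minus MI (log2 -1.57, SE 0.23, adjusted p = 4.45e-04) and stayed 2.36-fold above Sham in iCarP+/Light+ (log2 1.24, SE 0.23, adjusted p = 3.98e-04). These comparisons share their MI or Sham rats. It was the only member that fell in iCarP+/Light+ minus MI.

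Erbb3 is also known from Schwann cells, where it receives axonal Nrg1. The Schwann cell list summed to 90.6 to 122 CPM in Sham, 93.4 to 98.4 in MI rats and 87.8 to 104 in iCarP+/Light+, most of it from Cnp. Of its 9 tested markers, 1 rose (Mbp) and 4 fell in MI minus Sham. In iCarP+/Light+ minus MI the lowest adjusted p among the 9 was 0.163, for Mbp. Without Cnp the sum was 31.6 to 49.6 CPM in Sham hearts, 22.1 to 30.0 in MI hearts and 26.4 to 41.1 in iCarP+/Light+ hearts. The monocyte and macrophage list, most of it Lyz2 in the infarcted groups, had 6 of 8 tested markers higher in MI minus Sham and 1 higher and 2 lower in iCarP+/Light+ minus MI. Mrc1, a mannose receptor of macrophages, averaged 56.3 CPM in Sham, 248 in MI rats and 122 in iCarP+/Light+, a rise of log2 2.14 in MI minus Sham (adjusted p = 2.53e-05) and a log2 difference of -1.02 in iCarP+/Light+ minus MI (adjusted p = 0.0254). The other marker that fell in iCarP+/Light+ minus MI was C1qa (log2 -0.99, adjusted p = 0.0103), which had not been called in MI minus Sham (log2 -0.34, adjusted p = 0.202), and Adgre1 rose there (log2 1.19, adjusted p = 0.00753).

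The lymphoid and mast cell list summed to 51.7 to 93.3 CPM in Sham hearts, 111 to 250 in MI hearts and 68.0 to 95.7 in iCarP+/Light+ hearts. The height in MI came from Cd8a alone, which averaged 2.87, 127 and 35.8 CPM. Without Cd8a the list summed to 49.2 to 88.7 CPM in Sham hearts, 38.6 to 52.1 in MI hearts and 40.9 to 54.0 in iCarP+/Light+ hearts. Cd8a rose by log2 5.46 in MI minus Sham (adjusted p = 1.27e-06) and differed by log2 -1.83 in iCarP+/Light+ minus MI (adjusted p = 0.00939). Of the 9 tested genes of the list, 4 rose and 4 fell in MI minus Sham and 1 rose and 2 fell in iCarP+/Light+ minus MI. Cd3e, a chain of the T cell receptor complex, averaged 1.12, 4.75 and 1.98 CPM (log2 2.07, adjusted p = 4.95e-04, and log2 -1.25, adjusted p = 0.0426). Its partner chain Cd3g rose in MI minus Sham (log2 2.40, adjusted p = 4.13e-04) and did not pass in iCarP+/Light+ minus MI (log2 -0.91, adjusted p = 0.180). Cd4 fell in MI minus Sham (log2 -0.71, adjusted p = 0.00127), as did Gata3 (log2 -1.04, adjusted p = 0.0171) and the mast cell proteases Cpa3 (log2 -1.35, adjusted p = 0.00323) and Tpsb2 (log2 -1.50, adjusted p = 0.00778). Cd8a and Cd4 are not read here as T cell levels. Cd8a averaged 127 CPM in MI against 4.75 for Cd3e, and Cd4 averaged 39.7 CPM in Sham against 1.12 for Cd3e. The interleukin receptor Il7r, with 10 counts in 0 Sham rats, rose in MI minus Sham (log2 2.73, adjusted p = 1.06e-04) and again in iCarP+/Light+ minus MI (log2 2.24, adjusted p = 8.18e-04). The part of these cells in the level of Erbb3 was not tested.

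Erbb4, the receptor through which Nrg1 acts on cardiomyocytes, was nearly lost after ligation. Sham rats had 2.89, 4.91, 4.48 and 3.61 CPM (40, 72, 59 and 49 counts), MI rats 0.239, 0.270, 0.559 and 0.585 CPM (5, 5, 10 and 11 counts) and iCarP+/Light+ rats 0.501, 0.181, 0.0677 and 0.563 CPM (8, 3, 1 and 8 counts). All infarcted hearts lay far below all Sham hearts. Erbb4 was 9.51-fold lower in MI (log2 -3.25, SE 0.47, adjusted p = 5.45e-05) and 11.9-fold lower in iCarP+/Light+ (log2 -3.57, SE 0.50, adjusted p = 3.17e-05) than in Sham. Since Erbb4 passed the filter through Sham alone, these tests describe a difference that the filter favoured. At these counts the difference between the infarcted groups was not resolved (-0.32, SE 0.54, adjusted p = 0.763, 95% interval -1.48 to 0.83). The fall moved with that of the cardiomyocyte list, all 9 members of which fell in MI minus Sham with a median log2 of -3.33, and the part of that list in the fall was not tested.

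Egfr, the receptor of most of the ligands that rose, was called in 1 of the 3 comparisons. Its CPM was 4.05, 7.30, 5.62 and 3.61 in Sham, 7.85, 7.12, 5.76 and 9.36 in MI rats and 8.89, 10.8, 12.7 and 15.1 in iCarP+/Light+. MI overlapped both other groups, and iCarP+/Light+ lay wholly above Sham. Egfr rose 2.30-fold in iCarP+/Light+ minus Sham (log2 1.20, SE 0.25, adjusted p = 8.46e-04). Its difference in MI minus Sham was 0.55 (SE 0.25, adjusted p = 0.0700) and in iCarP+/Light+ minus MI 0.66 (SE 0.24, adjusted p = 0.101, 95% interval 0.13 to 1.18). The first of these passed in several other fits, among them DESeq2 (0.62, adjusted p = 0.0316) and the fit without Sham rat 2 (0.77, adjusted p = 0.0175).

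Erbb2, the shared partner, passed the test in none of the 3 comparisons. It had 5.78, 3.89, 7.14 and 6.12 CPM in Sham, 4.02, 3.94, 2.57 and 5.96 CPM in MI rats and 2.19, 5.32, 4.67 and 6.40 CPM in iCarP+/Light+, with all groups overlapping. The log2 difference was -0.47 in MI minus Sham (adjusted p = 0.227, 95% interval -1.19 to 0.24), 0.17 in iCarP+/Light+ minus MI (adjusted p = 0.800, interval -0.54 to 0.88) and -0.30 in iCarP+/Light+ minus Sham (adjusted p = 0.437, interval -1.02 to 0.41). All 3 signs turned when libraries were scaled by total counts alone.

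In iCarP+/Light+ minus Sham as a whole, 7 of the 10 genes rose and Erbb4 fell, with Btc and Erbb2 not called. Of all genes tested, 33.5% rose and 33% fell, and 63.5% had no overlap, against 8 of the 10 members. Areg, Ereg, Nrg1, Tgfa and Erbb4 are 5 of these 8, and the filter favoured a difference for them. In iCarP+/Light+ minus MI, where 1 member rose and 1 fell, the median log2 difference was 0.40 for the ligands, -0.08 for the receptors and 0.01 for all genes.

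Levels of different genes were compared as CPM per kilobase of the gene length in the table. In Sham the order of mean levels was Hbegf (3.03 CPM per kb), Erbb3 (1.68), Egfr (1.24), Erbb2 (1.21), Erbb4 (1.05), Btc (0.473), Areg (0.132), Tgfa (0.127), Nrg1 (0.0414) and Ereg at 0 counts. Of neighbours in this order only Erbb4 and Btc had ranges over rats that did not overlap. In MI it was Hbegf (20.4), Erbb3 (11.7), Egfr (1.81), Btc (1.07), Erbb2 (0.869), Areg (0.754), Ereg (0.504), Tgfa (0.389), Nrg1 (0.335) and Erbb4 (0.109). There the first 3 were separate from each other and from Btc, and the remaining neighbours overlapped. In iCarP+/Light+ it was Hbegf (20.5), Erbb3 (3.96), Egfr (2.86), Ereg (2.39), Areg (1.27), Erbb2 (0.980), Tgfa (0.834), Btc (0.605), Nrg1 (0.349) and Erbb4 (0.0864), with Hbegf above and Erbb4 below all others and the remaining neighbours overlapping. Ereg was thus last in Sham and next to Egfr in iCarP+/Light+, where Erbb4 was last.

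The make-up of the family was taken as each gene's share of the summed level per length. Erbb3 made up 31.9% ± 9.25 (SD, n = 4) of the summed receptor CPM per kb in Sham, 80.7% ± 4.54 in MI rats and 50.5% ± 6.63 in iCarP+/Light+, and the ranges of 23.3 to 44.4%, 75.5 to 85.7% and 45.5 to 60.3% did not overlap. The share of Erbb4 was 20.2% ± 2.69 in Sham hearts, 0.754% ± 0.322 in MI hearts and 1.09% ± 0.769 in iCarP+/Light+. Egfr held 23.9% ± 6.20, 12.6% ± 2.50 and 36.1% ± 3.38, and Erbb2 24.0% ± 7.22, 6.04% ± 2.02 and 12.3% ± 4.05. The ratio of Erbb3 to Erbb4 per kb, the receptors that bind Nrg1, stood at 1.45 (median) in Sham, 109 in MI rats and 48.6 in iCarP+/Light+, with overlapping ranges in the infarcted groups (73.2 to 216 and 31.4 to 217). On the ligand side Hbegf kept most of the sum, with 78.8% ± 8.49 in Sham, 87.0% ± 2.08 in MI rats and 79.1% ± 1.53 in iCarP+/Light+. The share of Ereg was 0 in Sham, 2.15% ± 0.723 in MI rats and 8.97% ± 3.05 in iCarP+/Light+. Summed ligand CPM per kb was 2.99 to 4.94 in Sham, 20.4 to 25.9 in MI rats and 22.1 to 28.8 in iCarP+/Light+, and summed receptor CPM per kb was 4.04 to 5.78, 12.2 to 16.4 and 6.88 to 9.79.

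**Figure D3:**
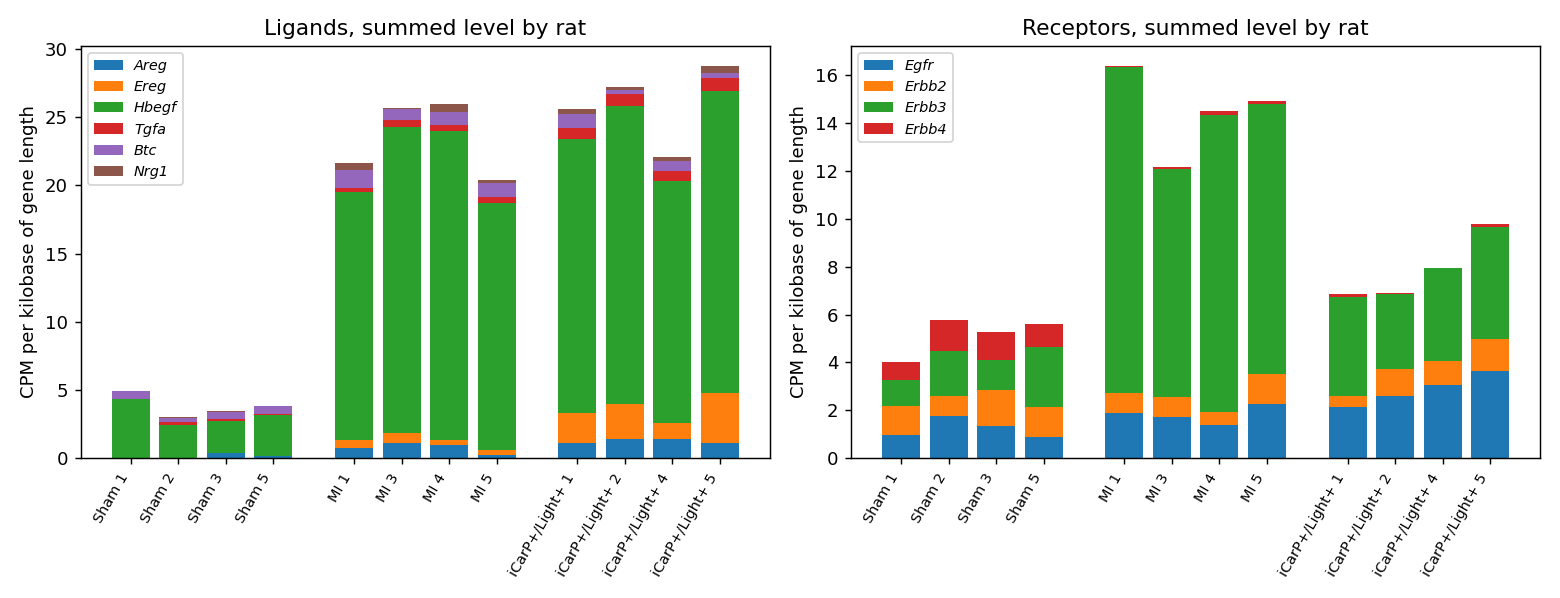
Summed CPM per kb of the ligands (left) and of the receptors (right) in each rat, stacked by gene, with rats along the x axis ordered by group. Ligand bars are filled mainly by Hbegf in all 12 rats, and the receptor bars are tallest in MI (12.2 to 16.4), where Erbb3 fills 75.5 to 85.7% of them.

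The genes around the family were taken from lists that name no member. Of the 5 remaining EGF-family ligands, 4 were in the table and only Nrg4, a ligand of Erbb4, had enough counts to be tested. Nrg4 averaged 0.251 CPM in Sham and 1.73 in MI (log2 2.73, SE 0.66, adjusted p = 0.00280). It reached 10 counts in 0 Sham rats, so the filter favoured this difference too, and its difference in iCarP+/Light+ minus MI was 1.23 (adjusted p = 0.162).

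Among 15 tested genes of ligand shedding, 7 rose and 6 fell in MI minus Sham, with a median log2 of 0.00, and 9 and 2 did so with total counts alone. The metalloproteases Adam8 (1.25 to 154 CPM, log2 6.95, adjusted p = 4.01e-08) and Adam12 (0.645 to 28.8 CPM, log2 5.45, adjusted p = 1.45e-06) rose most. Adam8 reached 10 counts in 3 Sham rats and Adam12 in 1, and both passed the filter through the infarcted groups. Timp3, an inhibitor of metalloproteases, fell from 242 to 75.1 CPM (log2 -1.69, adjusted p = 4.30e-05), and Bace1, a protease that cleaves Nrg1, from 32.9 to 13.3 CPM (log2 -1.30, adjusted p = 5.09e-05). Between the infarcted groups, 3 of these genes rose in iCarP+/Light+ and the other 12 did not pass. They were Rhbdf2, the iRhom2 partner of the sheddase Adam17 (43.7 to 144 CPM, log2 1.72, SE 0.21, adjusted p = 1.34e-04), Adam8 (154 to 335 CPM, log2 1.12, adjusted p = 0.0121) and Adam17 itself (148 to 252 CPM, log2 0.77, SE 0.12, adjusted p = 9.35e-04). Adam17, which releases several of the 6 ligands, is named after its values were seen, and it had also risen in MI minus Sham (94.3 to 148 CPM, log2 0.65, adjusted p = 5.05e-04).

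Of 24 tested inhibitors and downregulators of the receptors, 10 rose and 8 fell in MI minus Sham, against 15 and 5 with total counts alone. Sh3kbp1, an adaptor in receptor endocytosis, fell from 444 to 69.8 CPM (log2 -2.67, adjusted p = 5.76e-08) and Cblc, a ubiquitin ligase, from 14.5 to 1.19 CPM (log2 -3.61, adjusted p = 1.53e-05), while Spred3, of a family that restrains Ras signalling, rose from 0.743 to 18.3 CPM (log2 4.61, adjusted p = 1.83e-07, with 10 counts in 3 Sham rats) and Tns3 rose from 64.1 to 204 CPM (log2 1.67, adjusted p = 1.03e-06). In iCarP+/Light+ minus MI, 5 rose and Tns3 fell (204 to 144 CPM, log2 -0.50, adjusted p = 0.0395). The 5 included the phosphatase Ptpn1 (54.4 to 165 CPM, log2 1.60, adjusted p = 2.43e-04) and Errfi1, an inhibitor that binds the kinase of ErbB receptors (72.1 to 108 CPM, log2 0.58, adjusted p = 0.0359).

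Of 38 tested adaptors and kinases next to the receptors, 9 rose, 17 fell and 12 did not pass in MI minus Sham. The split was 18 higher and 4 lower with total counts alone and 11 and 11 with the 8 rats compared, so no direction is given for the list. Jak2 (44.5 to 127 CPM, log2 1.51, adjusted p = 7.60e-07) and Shc1 (74.2 to 151 CPM, log2 1.03, adjusted p = 8.69e-05) rose, and Araf (92.2 to 41.9 CPM, log2 -1.14, adjusted p = 4.07e-07) and Plcg1 (211 to 104 CPM, log2 -1.03, adjusted p = 4.60e-05) fell. Against MI, 12 rose and 1 fell in iCarP+/Light+, a split that became 5 and 5 with total counts alone. The docking protein Gab1 (14.3 to 38.1 CPM, log2 1.41, adjusted p = 0.00103) and the kinase Braf (5.64 to 14.9 CPM, log2 1.40, adjusted p = 0.0124) rose most, and Rasa1, a Ras GTPase activator, fell (85.8 to 65.9 CPM, log2 -0.38, adjusted p = 0.0280).

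Of 17 tested co-receptors, partners and matrix binders, 7 rose and 10 fell in MI minus Sham, against 7 and 6 with total counts alone. The proteoglycan Sdc1 rose from 8.19 to 286 CPM (log2 5.12, adjusted p = 3.96e-08) and Met, a receptor kinase that can pair with ErbB receptors, from 0.452 to 10.9 CPM (log2 4.57, adjusted p = 2.71e-05), with 10 counts in only 2 Sham rats, so that it passed the filter through the infarcted groups. Gpc1, a cell-surface proteoglycan, fell from 460 to 77.8 CPM (log2 -2.56, adjusted p = 5.27e-07) and Dcn, decorin of the matrix, from 1051 to 216 CPM (log2 -2.28, adjusted p = 1.72e-06). In iCarP+/Light+ minus MI, 5 rose and 1 fell, with Met (10.9 to 56.4 CPM, log2 2.37, adjusted p = 0.00288) and Cd82 (125 to 224 CPM, log2 0.84, adjusted p = 0.00255) highest and the integrin Itga6 lower (143 to 85.8 CPM, log2 -0.74, adjusted p = 0.00922).

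These counts in iCarP+/Light+ minus MI depended on the scaling and on single rats. With total counts alone 1 inhibitor rose and 4 fell, and 3 co-receptors rose and 4 fell. With a replicate block 2 inhibitors, 6 adaptors and 2 co-receptors rose. The 12 adaptors that rose became 4 without iCarP+/Light+ rat 5. The 5 inhibitors that rose became 2 without MI rat 5, iCarP+/Light+ rat 2 or iCarP+/Light+ rat 5 and 3 without MI rat 1, and the 5 co-receptors became 2 without iCarP+/Light+ rat 5 and 3 without iCarP+/Light+ rat 2. The single inhibitor and the single adaptor that fell each became 0 in several such fits, and 1 shedding gene fell without MI rat 3 or iCarP+/Light+ rat 1.

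**Figure D4:**
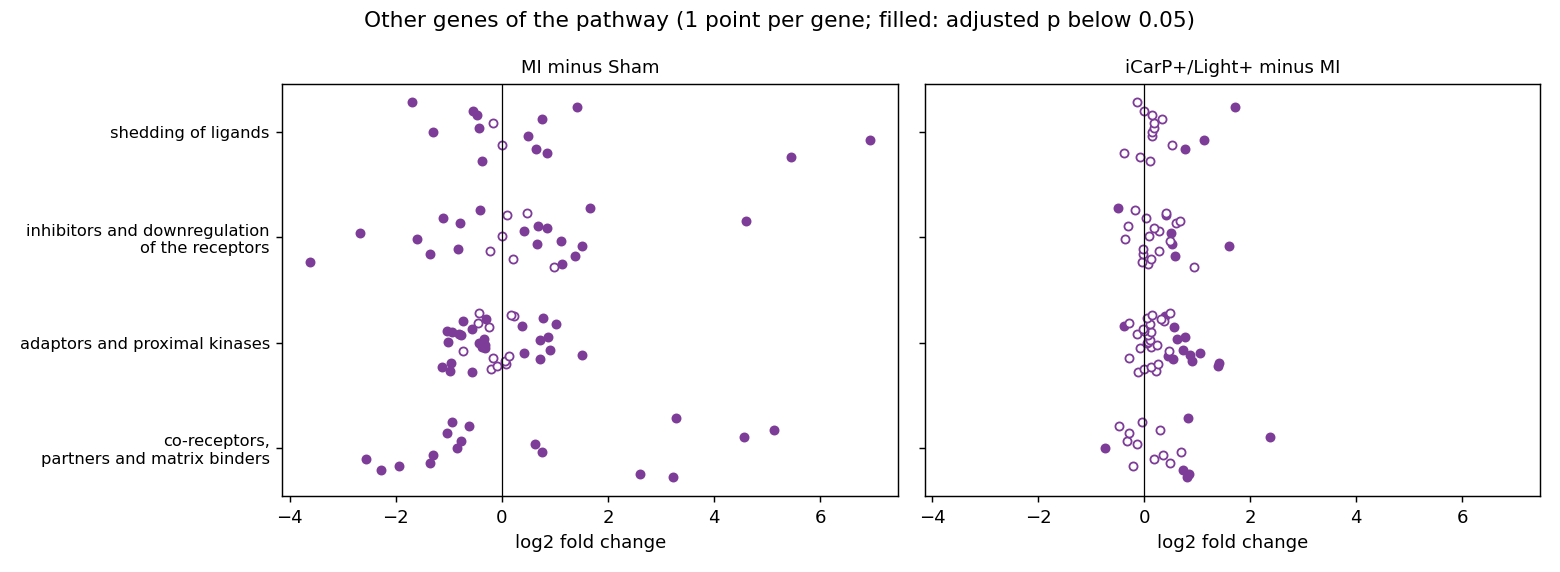
Log2 fold change of every tested gene of 4 lists, shedding, inhibitors, adaptors and co-receptors, in MI minus Sham (left) and iCarP+/Light+ minus MI (right). Each dot is 1 gene, filled where the adjusted p was below 0.05. The values spread widely to both sides in MI minus Sham, with Adam8 (6.95) farthest to the right, and lie closer to 0 in iCarP+/Light+ minus MI, where Met (2.37) is highest.

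For each member, the protein-coding genes with the most similar course over the 12 rats were found by the root mean square (RMS) difference of centred log2 CPM among 10719 genes, a measure for which some close match is always found. Erbb3 was followed most closely by Pid1 (RMS 0.22, against 1.21 for the spread of Erbb3 itself), which averaged 31.7, 218 and 87.4 CPM in Sham, MI and iCarP+/Light+, and by Apobec1 (RMS 0.31), which averaged 4.47, 28.5 and 12.4 CPM. Nearest to Ereg were Plaur, the urokinase receptor, with 6.17, 81.3 and 302 CPM (RMS 0.38), and Nlrp3, the inflammasome sensor, with 4.85, 33.4 and 190 CPM (RMS 0.46). Hbegf lay nearest to the amino acid transporter Slc1a5 (RMS 0.18) and Tmem97 (RMS 0.22), Egfr to Taok1 (RMS 0.19) and Chd1 (RMS 0.20), and Erbb4 to Nmrk2 (RMS 0.43), which averaged 33.7, 5.42 and 3.33 CPM, and Dcxr (RMS 0.50). For Tgfa the nearest were Mbp and Dock5, for Btc Ghdc and Bub1, for Nrg1 Stap1, for Erbb2 Zfp445 and Usp25, and for Areg Ugdh and AABR07044711.1, and for the low-count Areg, Nrg1 and Tgfa even the nearest gene was no closer than RMS 0.50.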

How the data were processed

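Raw counts per gene, deposited by the authors for left ventricle of 12 rats (Sham, MI and iCarP+/Light+, 4 each), were analysed. The submitters' processing notes name HISAT2, featureCounts and the rn6 build, without versions; the strand setting is not given in the sources used here, so reads of overlapping antisense genes cannot be told apart. RNA was total RNA from the infarct region 1 day after surgery.

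Counts were filtered with filterByExpr (minimum count 10; 15101 of 34599 genes kept), scaled by TMM and fitted in edgeR 4.0.16 under R 4.3.3 with 1 mean per group over all 12 rats, a quasi-likelihood test and Benjamini-Hochberg adjustment over all genes (threshold 0.05). Log2 CPM used a prior count of 2. Total counts per rat of 14064414 to 17136958 limit genes near 0, and a fold against a group at 0 used a floor of 3 counts over that group, which covers counting error only. The 18 within-group pairs of rats differed beyond sampling noise (chi-square per gene 14.0 to 111). Replicate numbers did not pair the rats. The p-values measure the spread between the rats of a group, numbered separately in the labels.

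Members and lists were chosen with earlier results of these data known. All members are named. From each list the 2 highest and 2 lowest log2 fold changes past the threshold, with a mean of at least 1 CPM, were named in MI minus Sham and iCarP+/Light+ minus MI, and for each member the 2 nearest protein-coding genes with a mean of at least 5 CPM. Mbp, Cnp, Lyz2, Mrc1, C1qa, Adgre1, Des, Wt1, Adam17, the neutrophil markers and the lymphoid and mast cell markers were chosen after their values were seen. So were the marker sums without 1 gene. Alternatives were DESeq2 1.42.0, limma 3.58.1 (voom), other scaling and filters, a fit of just the 8 rats in each comparison, no mitochondrial genes, a replicate block and leaving out each rat. The steps were tested on simulated data in which few genes changed, in the MI group only. That test does not cover scaling under shifts as wide as those seen here. Some genes that these rules name are not reported here.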

Additional observations from a re-analysis of the deposited data

How the results depend on the processing

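Most calls of the 10 genes were kept under other processing, where the gene was still tested. Over the alternatives that use all rats or a named subset, 231 tested values of single genes kept direction and side of the threshold. Another 8 newly passed it and 11 turned sign. Egfr in MI minus Sham kept its side of the threshold in 4 of 9 such alternatives, and Tgfa in iCarP+/Light+ minus MI in 5 of 8. Requiring 10 counts in every rat left 4 of the genes in the test (Hbegf, Egfr, Erbb2 and Erbb3), of which 3 rose and 0 fell in MI minus Sham, 0 rose in iCarP+/Light+ minus MI, and 3 rose and 0 fell in iCarP+/Light+ minus Sham. In iCarP+/Light+ minus MI, 2 genes rose (Ereg and Tgfa) with DESeq2, limma-voom and the 8 infarcted rats alone, and between 1 and 2 with each rat left out. With libraries scaled by their totals alone, the all-gene median moved to 0.52 in MI minus Sham, -0.25 in iCarP+/Light+ minus MI and 0.33 in iCarP+/Light+ minus Sham. That scaling called 3926 genes in iCarP+/Light+ minus MI in place of 2051, 30.7% of them higher in place of 85.2%, and the share called higher was 72.4% with 10 counts in every rat and 70.8% with DESeq2. In MI minus Sham the share went from 47.3% to 73.5% and in iCarP+/Light+ minus Sham from 50.3% to 64.7%. With total counts Erbb2 turned to 0.13, -0.12 and 0.0046 in the 3 comparisons, in that order, and Nrg1 to -0.21 in iCarP+/Light+ minus MI. Hbegf, near 0 in iCarP+/Light+ minus MI, turned to -0.26 with total counts, -0.0427 with DESeq2 and with its size factors in edgeR, -0.0041 without the filter, -0.0517 with 10 counts in every rat, -0.0332 in the 8 rats and -0.0338 without mitochondrial genes, and ranged from -0.11 to 0.0694 with each rat left out. In the same comparison Nrg1 ranged from -0.31 to 0.35 and Erbb2 from -0.10 to 0.40. The cause of these changes was not tested. Erbb3 fell in iCarP+/Light+ minus MI under every alternative run, with log2 differences of -1.83 to -1.57, and of -1.73 to -1.47 with each rat left out. Areg in iCarP+/Light+ minus Sham was 3.83 with limma-voom, and Btc in MI minus Sham 1.76 with total counts. Egfr in MI minus Sham also passed with DESeq2 size factors in edgeR (0.62, adjusted p = 0.0445), total counts (1.13, adjusted p = 0.00177), 10 counts in every rat (0.63, adjusted p = 0.0386) and the 8 rats of that comparison (0.69, adjusted p = 0.0421), and without MI rat 4, iCarP+/Light+ rat 5 or Sham rat 2. The replicate numbers are shared by different animals, and the 9 same-numbered pairs had correlations of deviations from -0.15 to 0.065. With a replicate block 8702, 1298 and 9155 genes were called in the 3 comparisons in place of 9633, 2051 and 10045, the calls of the 10 genes did not change, and Ereg in iCarP+/Light+ minus MI had a log2 difference of 2.31 (adjusted p = 0.0488).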
